A study of Mus musculus and Mus musculus
Oryx dammah with 30 samples.

Results

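The genes described here are 49 genes of DNA replication licensing and of the replication fork, found by gene name among 53023 gene rows of the tables for four-cell embryos and 55364 rows of the table for two-cell embryos. All 49 were found in every table, and the rule that chose them names functions and uses no measured value. RNA was sequenced from pools of nuclear transfer (NT) embryos, in which 2 cells of C2C12, a myoblast line of the C3H strain, had been fused to each embryo of a C57BL/6 and DBA/2 cross. All recipient embryos had been held before division with 0.1 µg/ml demecolcine, a drug that disrupts microtubules, and were cultured for 24 h after transfer, so the groups share demecolcine, the donor line and the fused cells.

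The first experiment compared 3 pools of 3 four-cell embryos cultured with 2.5 µg/ml α-amanitin, which blocks RNA polymerase II, with 3 pools of 3 cultured without it, with transfer at 46 h after insemination. The second compared groups D and DR, each of 3 pools of 4 four-cell embryos without α-amanitin. These groups belong to a replication experiment in which transfer time differed, but the sources used here do not say which letter stands for which time, so D and DR are given by letter. The third covered two-cell embryos in 12 pools of 5, 6 with and 6 without α-amanitin. The labels split them into early embryos (transfer at 21 h) and late embryos (transfer at 30 h), but the column names do not say which are which. The two-cell columns therefore are given as 2 sets of 6 by their names, NT and Am in one set and R and RAm in the other, where the 3 R columns were taken as untreated because their names carry no Am. Nothing states that pools came from separate days, so p-values measure the spread between these pools only. The embryo, the donor cells and their share of the RNA are all mouse, and their transcripts are summed in each value. Fewer cells of a type and less RNA per cell cannot be told apart in such pools.

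Before a chromosome can be copied, each origin is licensed. The origin recognition complex (ORC) binds DNA and, with Cdc6 and Cdt1, loads the ring of the MCM helicase, while geminin (Gmnn) holds Cdt1 back once replication has begun. In S phase the kinases Cdc7-Dbf4 and cyclin E-Cdk2 switch the loaded helicase on by recruiting Cdc45 and the GINS complex, with Mcm10 completing the step. Behind the helicase, primase and DNA polymerase α start each strand, polymerases ε and δ extend it on the Pcna clamp that replication factor C (Rfc) loads, Rpa covers single strands, and Fen1 and Lig1 finish the lagging strand. Many of these genes are targets of E2F factors in somatic cells, and early embryos divide at first on messages stored in the egg.

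E2F words stand in the promoters of 10 of these genes, and 6 are shown. Orc1, Cdc6, Gins3 and Rfc3 are all 4 of those that passed the test at the four-cell stage. Mcm5 and Mcm6 are 2 of the 6 that did not. The windows are in the GRCm38.p6 build with RefSeq starts, written 5′ to 3′ on the gene's strand, and capitals mark an E2F word.
Orc1, chr4:108579416-108579445, plus strand, 38 to 9 bases before the start: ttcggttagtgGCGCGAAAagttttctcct
Cdc6, chr11:98908002-98908031, plus strand, 149 to 120 bases before the start: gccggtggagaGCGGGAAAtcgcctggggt
Gins3, chr8:95633507-95633536, plus strand, 52 to 23 bases before the start: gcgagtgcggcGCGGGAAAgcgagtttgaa
Rfc3, chr5:151651209-151651238, minus strand, 30 to 1 bases before the start: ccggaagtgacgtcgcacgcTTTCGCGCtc
Mcm5, chr8:75109347-75109376, plus strand, 162 to 133 bases before the start: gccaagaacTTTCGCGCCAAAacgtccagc
Mcm6, chr1:128359795-128359824, minus strand, 119 to 90 bases before the start: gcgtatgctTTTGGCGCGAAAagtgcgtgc

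The words searched were TTTGGCGC, TTTCCCGC, TTTGCCGC and TTTCGCGC on either strand, in the 250 bases before each RefSeq start, and words could overlap each other. Mcm5 and Mcm6 hold 2 overlapping words each, and Mcm6 holds 3 words in all. Of the 49 genes 39 had a promoter entry, with 48 promoters, and 10 of these (20.8%) held a word, beside 1.86% of 32851 promoters. CCAAT stood in 52.1% of the members' promoters and 33.8% of all, and TTTGAA in 12.5% and 16%. A match is a description of letters, not of binding. Of the 11 members that passed the test at the four-cell stage 9 had an entry and 4 of those held an E2F word. Of the other 38, 30 had an entry and 6 held one: Cdk2, Mcm5, Mcm6, Mcm7, Orc3 and Pola1.

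The four-cell libraries of the α-amanitin experiment held 1136771 to 3101002 counted reads, recovered as whole reads from the FPKM values. The D libraries held 6059974 to 19181387, the DR libraries 2603946 to 4252278, and the two-cell libraries 4712268 to 10503779, all by approximate reconstruction. Spike-in RNA took 6.54% to 11.3% of the reads in two-cell libraries with α-amanitin and 2.38% to 6.26% without it, and 1 library without it, NT3, was highest at 6.26%. Early embryo and oocyte markers were present at 9037 to 16140 summed FPKM over 12 markers in the α-amanitin experiment, with 9 of 12 at 1 FPKM or more in every library of both groups. Markers of C2C12 cells summed to 105 to 2290 FPKM with α-amanitin and 211 to 782 without it, with 6 of 12 at 1 FPKM or more in every library of each group and Col1a1 at 0 in both. Cumulus and sperm markers summed to less than 1 FPKM in each of these libraries. The kit does not mark strand, so reads of Orc1, Orc2, Orc4, Orc6, Mcm7, Cdc45, Gins2, Pole, Rfc2, Rfc4, Rfc5, Fen1, Lig1, Timeless, Ccne2 and Cdk2, whose exons overlap a gene on the other strand, cannot be told apart from those of that gene where the exons overlap, and the overlapping share was not measured. Exons of Orc5, Rpa1, Pole2 and Mcm7 overlap another annotated gene on the same strand, so their reads may be shared with it, and reads of Pcna may be shared with its pseudogenes Pcna-ps1 and Pcna-ps2.

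At the four-cell stage, the members that were higher without α-amanitin encode the ORC subunits Orc1 and Orc5, the loaders Cdc6 and Cdt1, the helicase subunit Mcm4, the Cdc7 kinase, Gins3, Rfc3, Rpa1, Rrm2 and cyclin E2 (Ccne2). These 11 of 49 were higher without α-amanitin (limma on log2(FPKM + 1), adjusted p under 0.05 over 9884 genes), and none was lower. The share of all genes tested that was higher was 11.1%, and the share that was lower 1.13%. Of the 11, 8 passed 4-fold as well, beside 6.2% of all genes, and 27 of the 49 did not overlap between groups, beside 35.2%. Folds here and below are of FPKM + 1, so for genes near or under 1 FPKM they come out smaller than ratios of FPKM. The median difference over the 49 was 0.61 on the log2 scale, beside 0.37 over all genes tested, with 39 differences above 0 and 10 below. In each value sentence the 3 treated libraries come first (columns S16, S18 and S8), then the 3 untreated ones (S15, S17 and S7).

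Origin recognition gave 2 of 6 members, and each count by role in this comparison is read against the 11.1% of all genes that were higher. Orc1, the largest ORC subunit, lay at 4.54, 0.506 and 0.362 FPKM with α-amanitin and 21.1, 10.2 and 6.91 FPKM without it, and the groups did not overlap. Its difference was 2.48 (SE 0.64, adjusted p = 0.0405). Orc5 was present at 7.11, 9.84 and 3.98 FPKM with α-amanitin and 30.0, 16.0 and 19.0 FPKM without it, a difference of 1.53 (SE 0.42, adjusted p = 0.0472). Orc4 lay at 42.3, 18.8 and 18.9 FPKM with α-amanitin and 50.3, 61.4 and 65.5 FPKM without it and missed the threshold, with a difference of 1.21 (SE 0.36, adjusted p = 0.0612). All 3 untreated libraries were above all 3 treated ones for each of these subunits. Orc2, Orc3 and Orc6 differed by 1.07, 0.81 and 0.17 and did not pass.

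Among the 9 loading genes, Cdc6, Cdt1 and Mcm4 passed, 3 of 9 beside 11.1% of all genes. Cdc6 lay at 9.93, 7.23 and 1.44 FPKM with α-amanitin and 31.4, 28.2 and 28.7 FPKM without it, with the lowest treated value at 1.44 and untreated values within a narrow range. Its difference was 2.33 (SE 0.54, adjusted p = 0.0284). Cdt1, which brings MCM to the origin, lay at 7.39, 12.9 and 2.81 FPKM with α-amanitin and 38.7, 29.8 and 29.6 FPKM without it, a difference of 2.13 (SE 0.48, adjusted p = 0.0254). Mcm4, a subunit of the helicase ring, lay at 5.21, 8.09 and 3.68 FPKM with α-amanitin and 55.4, 23.0 and 17.6 FPKM without it, a difference of 2.19 (SE 0.48, adjusted p = 0.0245), and all untreated values lay above the treated ones. The other helicase subunits did not pass. Mcm6 lay at 40.0, 41.5 and 29.7 FPKM with α-amanitin and 27.2, 25.2 and 19.6 FPKM without it, with no overlap, but its difference of -0.60 (SE 0.29, adjusted p = 0.208) did not pass. Mcm2, Mcm3, Mcm5 and Mcm7 differed by 0.70, 0.90, 0.71 and 0.51. Geminin, which restrains Cdt1, lay at 368, 596 and 260.4 FPKM with α-amanitin and 400.0, 402 and 371 FPKM without it, and its groups overlapped with a difference of 0.02 (SE 0.29).

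In helicase activation, 3 of 11 members passed, beside 11.1% of all genes. Cdc7, the catalytic subunit of the kinase that phosphorylates MCM, had the largest difference of the 49 at 3.01 (SE 0.63, adjusted p = 0.0207), from 4.47, 0.421 and 0.903 FPKM with α-amanitin and 38.1, 12.2 and 14.0 FPKM without it. Gins3, a subunit of the active helicase, lay at 5.95, 0.649 and 8.13 FPKM with α-amanitin and 49.4, 34.5 and 22.2 FPKM without it, a difference of 2.88 (SE 0.64, adjusted p = 0.0251), and Ccne2, a cyclin of Cdk2, lay at 1.66, 1.51 and 7.38 FPKM with α-amanitin and 21.1, 16.4 and 12.3 FPKM without it, a difference of 2.17 (SE 0.53, adjusted p = 0.0334). For each of these genes every untreated library was above every treated one. Mcm10, which completes helicase activation, lay at 3.35, 1.94 and 0.818 FPKM with α-amanitin and 7.70, 5.97 and 10.9 FPKM without it, and its difference of 1.65 (SE 0.47, adjusted p = 0.0527) missed the threshold. Dbf4, the activating partner of Cdc7, differed by 0.76 (SE 0.31). Cdc45, Gins2, Gins4, Ccne1 and Cdk2 differed by 0.23, 0.09, 0.15, 0.46 and 1.22, and Gins1 by -0.47, none of them past the threshold.

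None of the 8 polymerase and primase genes passed. Their differences ran from -0.48 for Pola2, the accessory subunit of polymerase α, to 0.48 for Pole2, an accessory subunit of polymerase ε, with a median of 0.05. Pole, the catalytic subunit of polymerase ε, lay at 2.95, 2.52 and 4.62 FPKM with α-amanitin and 2.83, 1.71 and 1.99 FPKM without it, and Pola2 lay at 5.05, 7.04 and 7.67 FPKM with α-amanitin and 4.58, 2.28 and 7.57 FPKM without it. Both groups overlapped for both genes. In the clamp and clamp loader group Rfc3 passed. It lay at 5.27, 10.5 and 1.92 FPKM with α-amanitin and 26.9, 26.6 and 31.2 FPKM without it, a difference of 2.30 (SE 0.50, adjusted p = 0.0229), while Pcna differed by 0.46 and the other Rfc subunits by -0.20 to 0.61. Rpa1, the large subunit of the single strand binding complex, lay at 0.463, 0.631 and 0.903 FPKM with α-amanitin and 3.07, 4.80 and 5.22 FPKM without it and passed, a difference of 1.67 (SE 0.39, adjusted p = 0.0284). Rpa1 was under 1 FPKM in every treated library. Rpa2 and Rpa3 did not pass, with 1.07 and 0.22, nor did Lig1 with 0.98. Fen1, a flap endonuclease, lay at 0.266, 1.09 and 0 FPKM with α-amanitin and 2.54, 0.451 and 2.29 FPKM without it and rested on 3 reads or fewer in each treated library, so no ratio is given.

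Most transcripts of these genes by level were those of genes that did not pass. Gmnn, Tipin, Rrm2, Gins4, Orc6 and Gins1 had the highest means without α-amanitin. Rrm2, the small subunit of ribonucleotide reductase, was the one of these that passed, at 171, 118 and 76.3 FPKM with α-amanitin and 294, 250.3 and 329.6 FPKM without it, a difference of 1.32 (SE 0.31, adjusted p = 0.0285). Its large subunit Rrm1 differed by 0.93 (SE 0.35). Tipin, which protects stalled forks with Timeless, lay at 397, 466 and 365 FPKM with α-amanitin and 367, 323 and 323 FPKM without it, and Timeless at 2.48, 2.73 and 3.19 FPKM with α-amanitin and 1.51, 1.97 and 1.21 FPKM without it. Both were lower without α-amanitin by the fitted difference, -0.27 (SE 0.20) for Tipin and -0.58 (SE 0.38) for Timeless, and neither passed. Gins4 lay at 142, 158 and 165 FPKM with α-amanitin and 174, 152 and 192 FPKM without it, Orc6 at 150.2, 155 and 128 FPKM with α-amanitin and 177, 180.2 and 133 FPKM without it and Gins1 at 162, 139 and 154 FPKM with α-amanitin and 117, 138 and 79.6 FPKM without it. Gins4 and Orc6 overlapped between groups and Gins1 did not, with its untreated values the lower ones.

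The number of genes past the threshold fell to 6 or fewer when any of 5 of the 6 libraries was left out, and it was 10, beside 11.9% of all genes, without the treated library S16. No member passed without the untreated library S15 or S17, and 1 passed without S7, 4 without the treated library S18 and 6 without S8. The share of all genes that was higher fell too, from 11.1% to 3.53% without S15, 4.76% without S17, 3.71% without S7, 4.04% without S18 and 5.64% without S8. The differences stayed above 0 for all 11 members in these fits, as with Orc1 at 2.07 or more and Cdc7 at 2.52 or more. With no filter on low values, none passed, beside 1.23% of 22303 genes. Scaling by the median of ratios over genes moved the median of all genes from 0.37 to 0.13 and left 7 members higher, beside 7.7% of all genes. It turned the sign of 8 members that had not passed (Prim2, Rpa3, Gins4, Orc6, Gins2, Gmnn, Cdc45 and Pola1) and of none that had. The summed level of the 49 genes was 1685 to 2426 FPKM with α-amanitin and 2493 to 2756 without it, so the sums did not overlap. The early embryo and oocyte markers summed to 12248 to 16140 FPKM with α-amanitin and 9037 to 10038 without it, and Dppa3 alone made up 96% to 99.4% of that sum. The other 11 summed to 78.2 to 212 FPKM with α-amanitin and 142 to 360.4 without it. Of the 12 markers 2 were higher without α-amanitin, Zfp42 at 3.95 and Nr5a2 at 2.66, and Zp3 was lower at -1.69 (limma, adjusted p under 0.05). Their part in these results was not tested.

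Lists of related genes were counted in the same fit, where 11.1% of all genes were higher and 1.13% lower. Of 19 tested other replication factors, 2 were higher without α-amanitin, Ticrr, which helps recruit Cdc45, at 2.01 (SE 0.44, adjusted p = 0.0235) and Mms22l at 1.85 (SE 0.49, adjusted p = 0.0450), and Pole3, a polymerase ε subunit, was lower at -0.92 (SE 0.22, adjusted p = 0.0309). Of 18 genes of nucleotide supply 1 was higher, thymidylate synthase Tyms at 1.16 (SE 0.27, adjusted p = 0.0273). Of 11 of chromatin assembly 2 were higher, the histone chaperone Asf1b at 2.70 (SE 0.50, adjusted p = 0.0144) and the acetyltransferase Hat1 at 1.32 (SE 0.37, adjusted p = 0.0486). Lin37, a subunit of the DREAM complex, was the 1 gene of 12 tested E2F and Rb regulators that was higher, at 1.49 (SE 0.39, adjusted p = 0.0398). In the S phase and G1 list 2 of 15 were higher, Fbxo5 (Emi1, an inhibitor of the anaphase promoting complex) at 4.66 (SE 0.66, adjusted p = 0.00723) and the Cdk inhibitor Cdkn1a at 3.61 (SE 0.37, adjusted p = 0.00249). In the replication checkpoint list 2 of 9 were higher, the checkpoint clamp subunits Rad1 at 2.90 (SE 0.44, adjusted p = 0.00822) and Rad9a at 2.44 (SE 0.54, adjusted p = 0.0245).

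**Figure D1:**
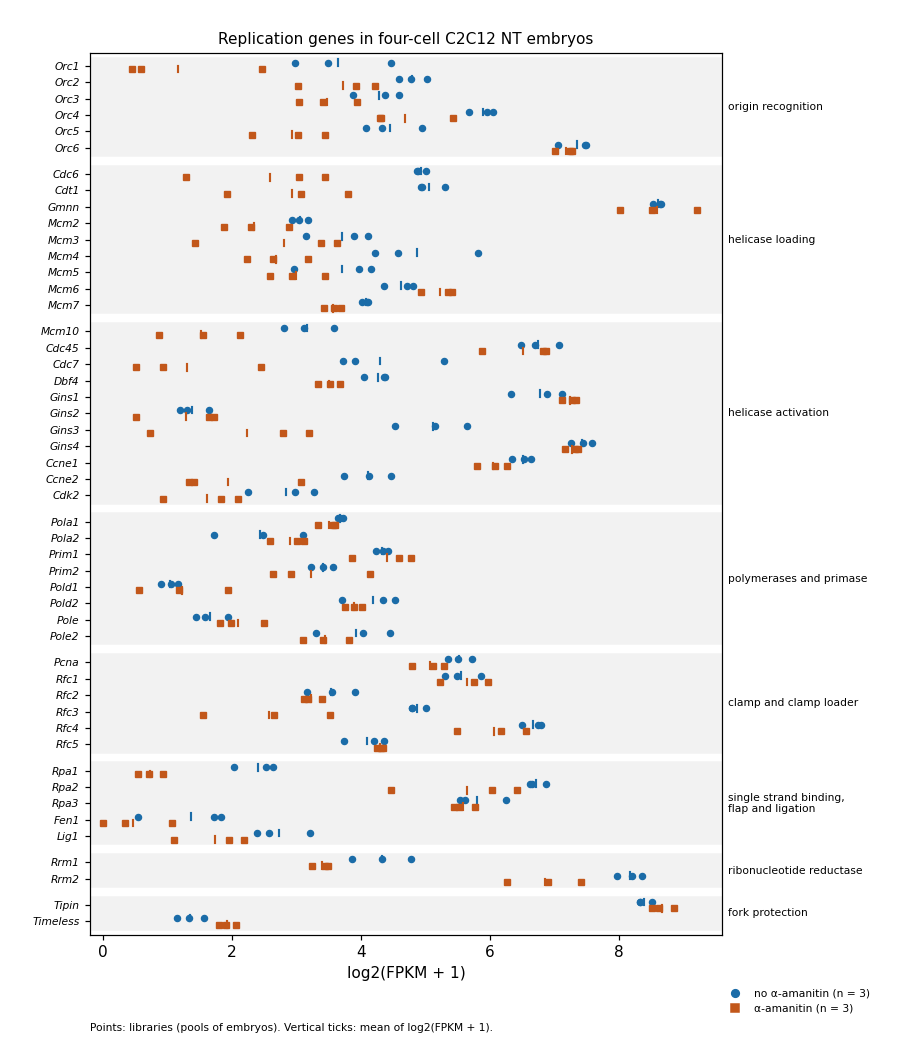
Level of each of the 49 genes, as log2(FPKM + 1), in 3 four-cell libraries with α-amanitin (squares) and 3 without it (circles), grouped by role. Vertical ticks are group means. Cdc6, Cdt1 and Rfc3 show untreated libraries well above the treated ones, while the polymerase genes, Gmnn, Tipin and Orc6 overlap or nearly do.

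In groups D and DR, no replication gene passed the test, and most differed by little. None of the 49 passed (limma, adjusted p under 0.05), beside 0% of 14570 genes tested. At an unadjusted p under 0.05, 2 of 49 passed beside 6.16% of all genes, and 7 did not overlap between groups, beside 12.2% of all genes. The median difference, DR minus D, was 0.10 on the log2 scale, beside 0.02 over all genes, and 38 of the 49 were within 0.5 of 0. Of the 95% intervals, 24 lay within 2-fold in either direction and 48 within 4-fold, again of FPKM + 1. The intervals reached 0.47 to 1.34 to either side of the difference. These unadjusted intervals therefore leave room for changes larger than the differences given, by that width. A difference had to be larger still to pass after adjustment over all genes.

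The genes that stood highest in DR were Cdk2, Mcm10, Ccne1, Mcm6 and Cdt1. Mcm10 lay at 4.50, 4.98 and 3.30 FPKM in D and 13.6, 9.48 and 8.09 FPKM in DR, a difference of 1.10 (SE 0.30) with an unadjusted p of 0.0070 and an adjusted p of 0.788 by limma. It is 1 of the genes whose groups did not overlap. Cyclin E1 (Ccne1) lay at 69.4, 42.2 and 33.7 FPKM in D and 91.3, 88.1 and 69.8 FPKM in DR, a difference of 0.82 (SE 0.30), and Cdk2, its kinase, at 6.00, 8.08 and 1.35 FPKM in D and 17.2, 6.41 and 10.1 FPKM in DR, a difference of 1.11 (SE 0.57). The D library D5 was lowest for Cdk2, and this was the one interval that went past 4-fold. Mcm6 lay at 15.0, 23.3 and 8.94 FPKM in D and 25.7, 28.7 and 22.8 FPKM in DR, a difference of 0.76 (SE 0.35), and Cdt1 at 18.2, 18.4 and 19.3 FPKM in D and 45.1, 20.9 and 25.4 FPKM in DR, a difference of 0.60 (SE 0.32). Cdt1 and Ccne1 did not overlap between groups, and neither did Pola2, Rfc5 and Rfc1, which were higher in DR, or Orc6, which was lower. Pola2 differed by 0.60 (SE 0.27), Rfc5 by 0.46 (SE 0.26), Rfc1 by 0.19 (SE 0.21) and Orc6 by -0.31 (SE 0.20), all with an adjusted p above the threshold.

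The largest differences toward D were in Orc1, at 23.6, 9.52 and 11.6 FPKM in D and 11.1, 7.37 and 6.46 FPKM in DR, a difference of -0.70 (SE 0.39), and in Mcm3, a helicase subunit, at 8.62, 6.81 and 7.94 FPKM in D and 3.33, 11.9 and 2.15 FPKM in DR, a difference of -0.64 (SE 0.52). Library D1 held the highest Orc1 value, and library DR2 had the highest Mcm3 value of all 6. Rfc3 lay at 18.6, 16.9 and 29.9 FPKM in D and 13.0, 17.4 and 10.5 FPKM in DR, Mcm4 at 18.1, 14.3 and 26.0 FPKM in D and 18.2, 10.6 and 11.1 FPKM in DR and Rpa3 at 34.5, 19.4 and 47.3 FPKM in D and 21.2, 24.5 and 23.3 FPKM in DR, with differences of -0.63 (SE 0.31), -0.51 (SE 0.33) and -0.45 (SE 0.34). The most abundant members were Gmnn at 199, 208 and 263 FPKM in D and 246, 204 and 281 FPKM in DR and Tipin at 195, 206 and 435 FPKM in D and 176, 171 and 237 FPKM in DR. Their groups overlapped, and so did those of Rrm2, at 134, 86.5 and 119 FPKM in D and 216, 65.9 and 138 FPKM in DR. The highest Tipin value of the 6 was in library D5. By role, the medians of the differences lay between -0.27 for fork protection and 0.24 for helicase activation. Of the related lists (other replication factors, nucleotide supply, chromatin assembly, E2F and Rb regulators, S phase control and checkpoint), none had a gene past the threshold, and each had 0 to 2 genes at an unadjusted p under 0.05.

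Spike-in RNA gave a different scale. Spike-ins took 0.0181% to 0.776% of the reads in these 6 libraries, their scaling factors spanned 59.8-fold, and only 19 of 92 spike-ins were found in all 6. On that scale all 49 differences were below 0, with a median of -1.44, beside -1.41 over all genes, and again none passed, with none at an unadjusted p under 0.05 beside 0.604% of all genes. The median of the 49 on this scale was -0.28 without D1, where 39 were below 0, and -2.89 without D5 and -2.41 without DR3, beside -0.35, -2.76 and -2.26 over all genes. Without DR1 it was -0.97 and without DR2 -0.91, beside -0.96 and -0.99. D libraries held 4670 to 5817 FPKM of early embryo and oocyte markers and DR libraries 3533 to 4184, of which Dppa3 made up 94.3% to 97.9%. The other 11 markers summed to 121 to 144 FPKM in D and 163 to 208 in DR, and 6 of the 12 had differences above 0 and 6 below. C2C12 markers summed to 456 to 593 in D and 277 to 465 in DR. The part of these differences in the values above was not tested.

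**Figure D2:**
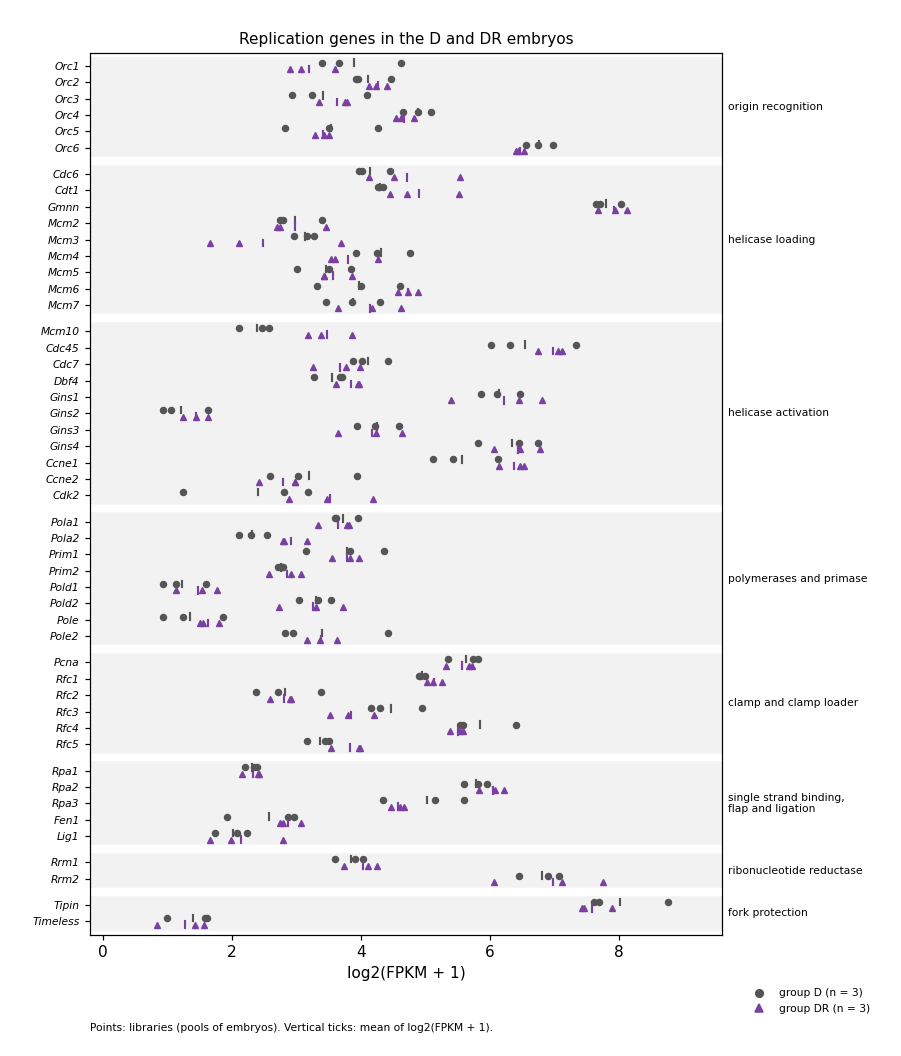
Level of each of the 49 genes, as log2(FPKM + 1), in the 3 D libraries (circles) and 3 DR libraries (triangles), with group means as vertical ticks. Mcm10, Ccne1, Cdt1, Pola2, Rfc1, Rfc5 and Orc6 do not overlap between groups.

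**Figure D3:**
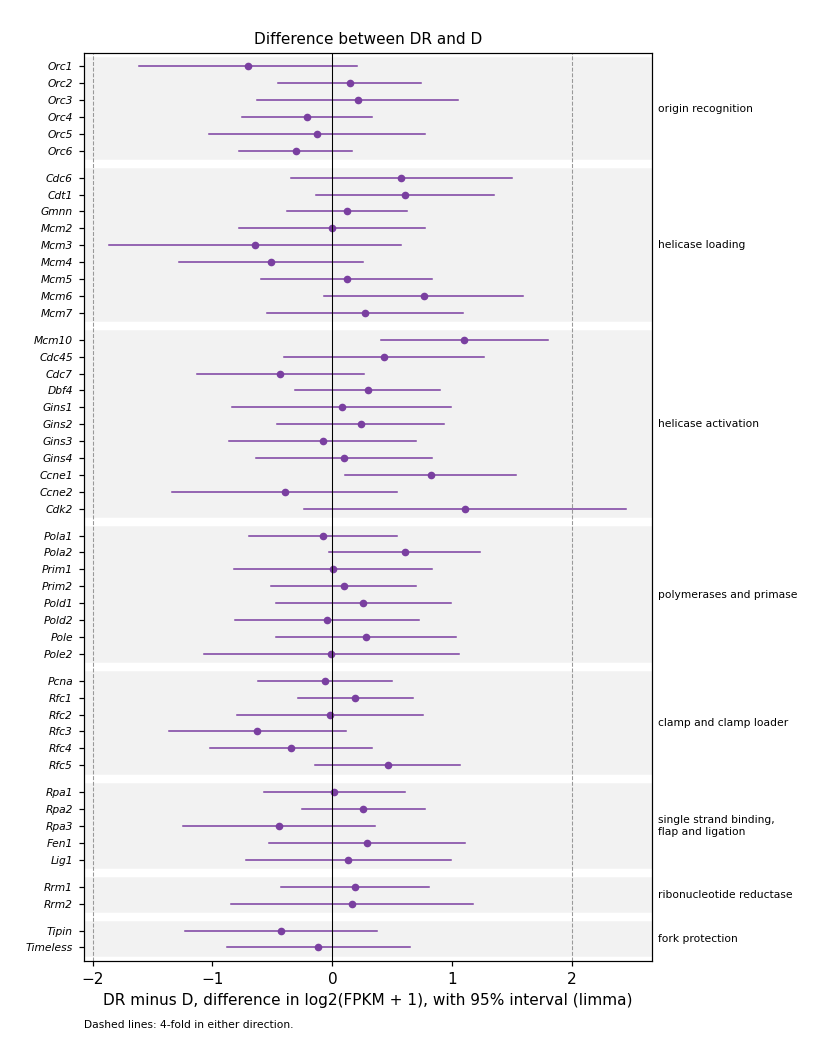
Difference between DR and D for each of the 49 genes on the log2(FPKM + 1) scale, with the 95% interval from limma. The interval of Cdk2 goes past the dashed line at 4-fold, and only Mcm10 and Ccne1 have intervals that leave out 0.

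In the two-cell embryos, Cdc6, Cdc7, Cdt1, Orc1, Mcm10, Rfc4 and Rrm2 were higher without α-amanitin in both column sets on values as deposited. Mcm10 in the NT and Am set and Rfc4 in the R and RAm set missed the threshold under median of ratios scaling. More genes passed in the R and RAm set than in the NT and Am set, among the replication genes and among all genes. With all 12 libraries in 1 fit, 29 of 48 tested members were higher without α-amanitin (adjusted p under 0.05, limma), beside 38.9% of 17196 genes, and 0 were lower, beside 8.51%. Pold1 was under the filter. By 4-fold as well, 11 passed, beside 11.1%. In the NT and Am set alone, 8 of 48 were higher, beside 12.7% of 14285 genes, and 0 were lower, beside 4.18%. In that set 2 passed 4-fold, beside 3.29%, and 22 did not overlap between groups, beside 38%. The median difference was 0.39 beside 0.26 over all genes. In the R and RAm set alone, 34 of 48 were higher, beside 60.5% of 14387 genes, and 3 were lower, beside 16.4%. There 21 were higher by 4-fold, beside 33%, and 38 did not overlap between groups, beside 78.5%. The median difference was 1.80 beside 1.31. The summed level of the 49 genes was 1336 to 1577 FPKM in Am, 1685 to 2027 in NT, 455 to 485 in RAm and 2328 to 2436 in R, so the groups separated in each set. Early embryo and oocyte markers summed to 1414 to 3311 FPKM in RAm, 6912 to 8016 in Am, 7415 to 9116 in R and 8501 to 12363 in NT, sums of which Dppa3 made up 28.4% to 48.7% in RAm and 94.5% to 99.1% in the other groups. Without Dppa3 the sums were 725 to 2122 FPKM in RAm, 274 to 440.2 in Am, 173 to 286 in R and 84.8 to 122 in NT, so the other markers were highest in RAm. Of 11 markers tested, 3 were higher and 6 lower in R than in RAm, and 0 were higher and 3 lower in NT than in Am. C2C12 markers summed to 1190 to 1784 in RAm, 2332 to 2545 in Am, 167 to 505 in R and 1004 to 4293 in NT, with Lgals1 at 109.9 to 3589 FPKM over the 12 libraries. Of these markers Col3a1 was higher without α-amanitin in both sets, at 3.27 in NT against Am and 2.89 in R against RAm, and Lgals1 and S100a6 were lower in R, at -2.49 and -2.14. Their part in the results was not tested, and stage and column set cannot be told apart.

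In the NT and Am set the 8 genes past the threshold were Cdc6, Cdc7, Rfc3, Cdt1, Rfc4, Rrm2, Mcm10 and Orc1. Cdc6 lay at 0.203, 2.25 and 0.162 FPKM in the Am libraries and 26.8, 16.4 and 6.97 FPKM in the NT libraries, a difference of 3.25 (SE 0.57, adjusted p = 0.0122). In this gene Am2 was the highest treated library and NT3 the lowest untreated one. Cdc7 lay at 1.47, 2.74 and 0.929 FPKM in the Am libraries and 11.4, 11.2 and 10.8 FPKM in the NT libraries, a difference of 2.22 (SE 0.32, adjusted p = 0.00696). Rfc3 lay at 0.646, 1.60 and 0.515 FPKM in the Am libraries and 7.34, 5.51 and 6.43 FPKM in the NT libraries, a difference of 1.99 (SE 0.32, adjusted p = 0.0102). Each of these had all untreated values above all treated ones. Cdt1 lay at 2.84, 2.90 and 2.48 FPKM in the Am libraries and 20.4, 12.8 and 7.43 FPKM in the NT libraries, a difference of 1.86 (SE 0.37, adjusted p = 0.0174), and Rfc4, a clamp loader subunit, at 11.4, 9.93 and 5.87 FPKM in the Am libraries and 27.2, 32.0 and 30.7 FPKM in the NT libraries, a difference of 1.66 (SE 0.28, adjusted p = 0.0113). Rrm2 lay at 27.5, 39.9 and 25.2 FPKM in the Am libraries and 108, 109.5 and 77.5 FPKM in the NT libraries, a difference of 1.65 (SE 0.25, adjusted p = 0.00859). Orc1 lay at 7.35, 5.22 and 6.27 FPKM in the Am libraries and 17.6, 14.8 and 15.1 FPKM in the NT libraries, a difference of 1.22 (SE 0.25, adjusted p = 0.0182), and Mcm10 at 1.38, 0.572 and 0.843 FPKM in the Am libraries and 4.00, 4.73 and 2.58 FPKM in the NT libraries, a difference of 1.30 (SE 0.32, adjusted p = 0.0329). The groups did not overlap for these genes. Without NT3, 12 members were higher, beside 16.8% of all genes, and 1 was lower, beside 5.48%, and without Am1 4 were higher, beside 3.95%. Cdc7, Rfc3, Rfc4 and Rrm2 passed in this set whichever of its 6 libraries was left out, while Cdc6 missed the threshold without Am1, Orc1 and Cdt1 missed it in 4 of those 6 fits each and Mcm10 in 5. Mcm10 missed it under median of ratios scaling as well.

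In that set, the most abundant members were again Tipin and Gmnn, and neither passed. Tipin lay at 356, 395 and 333 FPKM in the Am libraries and 452, 396 and 415 FPKM in the NT libraries and Gmnn at 299, 355 and 315 FPKM in the Am libraries and 411, 368 and 372 FPKM in the NT libraries, with differences of 0.22 (SE 0.16) and 0.25 (SE 0.16). Dbf4 lay at 33.3, 42.6 and 25.4 FPKM in the Am libraries and 18.3, 18.0 and 21.2 FPKM in the NT libraries, a difference of -0.76 (SE 0.25, adjusted p = 0.0745), and Orc2 at 30.4, 41.9 and 32.4 FPKM in the Am libraries and 26.9, 22.8 and 17.6 FPKM in the NT libraries, a difference of -0.62 (SE 0.25, adjusted p = 0.122). These 2 genes had lower untreated values, and they were lower past the threshold when values were scaled by the median of ratios over genes, where 7 members were higher, beside 7.43% of all genes, and 2 lower, beside 6.83%. On the spike-in scale no member was lower past the threshold in this set, beside 0.77% of all genes.

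In the R and RAm set, 4 of the 6 origin recognition genes were higher in R and 1 was lower, beside 60.5% and 16.4% of all genes. Scaled by the median of ratios over genes, 2 were higher, Orc1 and Orc6, and 2 lower, Orc5 and Orc2, beside 42.6% and 24.9% of all genes. Orc1 lay at 2.05, 1.38 and 0.699 FPKM in RAm and 14.9, 14.0 and 27.7 FPKM in R, a difference of 3.04 (SE 0.36, adjusted p = 0.000177). Orc6 lay at 58.0, 55.4 and 45.6 FPKM in RAm and 189, 162 and 200.4 FPKM in R, a difference of 1.78 (SE 0.19, adjusted p = 0.000122), and Orc4 at 11.8, 13.9 and 13.7 FPKM in RAm and 36.9, 36.9 and 45.0 FPKM in R, a difference of 1.52 (SE 0.21, adjusted p = 0.00033). Orc5 went the other way, at 25.9, 18.4 and 20.3 FPKM in RAm and 8.40, 5.66 and 4.72 FPKM in R, and was lower in R by a difference of -1.65 (SE 0.27, adjusted p = 0.000949). That direction held on values as deposited and under median of ratios scaling. On the spike-in scale all 48 differences in this set were above 0, that of Orc5 included, and no member was lower. In the NT and Am set Orc5 had lain at 2.86, 1.11 and 2.47 FPKM in the Am libraries and 9.55, 2.13 and 2.89 FPKM in the NT libraries, so its RAm values were the highest of the 4 groups. Orc3 lay at 1.15, 1.28 and 2.37 FPKM in RAm and 5.77, 4.53 and 2.91 FPKM in R, a difference of 1.05 (SE 0.32, adjusted p = 0.0172), and missed the threshold without R3 or r1. Orc2 differed by -0.08 (SE 0.24) and did not pass.

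Of the 9 loading genes 7 were higher in R, beside 60.5% of all genes, and none was lower, beside 16.4%. Under median of ratios scaling 6 were higher, all of the 7 but Mcm2, beside 42.6%, and none lower, beside 24.9%. Mcm7 lay at 0.179, 0.166 and 0.259 FPKM in RAm and 10.3, 13.2 and 14.6 FPKM in R, a difference of 3.50 (SE 0.25, adjusted p = 2.22e-05), and Mcm6 at 6.32, 2.62 and 2.67 FPKM in RAm and 27.9, 24.3 and 22.0 FPKM in R, a difference of 2.48 (SE 0.33, adjusted p = 0.000299). Cdt1 lay at 0.506, 0.902 and 0 FPKM in RAm and 14.1, 21.3 and 13.7 FPKM in R and Cdc6 at 0.708, 0.130 and 0.410 FPKM in RAm and 15.7, 14.0 and 18.9 FPKM in R, with differences of 3.58 (SE 0.33, adjusted p = 5.95e-05) and 3.61 (SE 0.27, adjusted p = 2.79e-05). Both loaders were under 1 FPKM in every RAm library. Mcm3 lay at 0, 1.66 and 0.267 FPKM in RAm and 5.28, 5.40 and 3.96 FPKM in R, a difference of 1.96 (SE 0.38, adjusted p = 0.00222), and Mcm2 at 3.10, 2.39 and 0.864 FPKM in RAm and 4.71, 4.36 and 5.02 FPKM in R, a difference of 0.94 (SE 0.34, adjusted p = 0.0346). Geminin lay at 53.4, 76.6 and 68.4 FPKM in RAm and 452, 448 and 499 FPKM in R, a difference of 2.81 (SE 0.20, adjusted p = 2.24e-05). Its Am libraries had lain at 299, 355 and 315 FPKM. Mcm2 passed in 2 of the 6 fits that left out a library. Mcm4 and Mcm5 differed by 0.41 (SE 0.49) and 0.77 (SE 0.37) and did not pass. Mcm5, which passed in the fit of all 12 libraries, lay at 0.185, 1.36 and 1.47 FPKM in RAm and 3.38, 2.34 and 1.36 FPKM in R and at 0.425, 1.56 and 2.12 FPKM in the Am libraries and 3.33, 2.65 and 4.09 FPKM in the NT libraries.

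In helicase activation 9 of 11 members were higher in R and 1 was lower, beside 60.5% and 16.4% of all genes, with a median difference of 2.61 beside 1.31 over all genes. Under median of ratios scaling 8 were higher, with Gins2 no longer past the threshold, and 1 lower, beside 42.6% and 24.9%. Gins1 lay at 0.333, 2.34 and 0.283 FPKM in RAm and 94.1, 80.8 and 80.8 FPKM in R, a difference of 5.59 (SE 0.39, adjusted p = 2.18e-05), the largest of the 48 on the log2(FPKM + 1) scale. Gins3 lay at 0, 0.0418 and 0 FPKM in RAm and 49.2, 33.2 and 43.6 FPKM in R, a difference of 5.39 (SE 0.25, adjusted p = 5.68e-06) that depends on the pseudocount of 1, since the RAm libraries held at most 1 read each. Ccne1 lay at 3.54, 4.26 and 0.645 FPKM in RAm and 75.0, 84.4 and 88.7 FPKM in R, a difference of 4.62 (SE 0.44, adjusted p = 6.38e-05), and Cdc45, which binds the active helicase, at 12.2, 9.79 and 6.02 FPKM in RAm and 124, 149 and 134 FPKM in R, a difference of 3.77 (SE 0.27, adjusted p = 2.37e-05). None of these groups overlapped. Cdc7 lay at 0.0506, 3.06 and 0 FPKM in RAm and 10.2, 11.9 and 11.7 FPKM in R, Mcm10 at 0.706, 0.526 and 0.121 FPKM in RAm and 4.53, 7.16 and 6.49 FPKM in R and Cdk2 at 0.136, 0.209 and 1.07 FPKM in RAm and 5.20, 8.28 and 7.31 FPKM in R, with differences of 2.91 (SE 0.54, adjusted p = 0.00165), 2.29 (SE 0.28, adjusted p = 0.000208) and 2.46 (SE 0.32, adjusted p = 0.000282). Gins4 lay at 18.9, 3.57 and 7.11 FPKM in RAm and 75.6, 53.2 and 39.8 FPKM in R, a difference of 2.61 (SE 0.53, adjusted p = 0.00258), and Gins2 at 0.388, 0.636 and 1.21 FPKM in RAm and 2.47, 3.52 and 4.93 FPKM in R, a difference of 1.41 (SE 0.30, adjusted p = 0.00319). Dbf4 lay at 32.6, 37.1 and 40.5 FPKM in RAm and 23.6, 26.0 and 24.0 FPKM in R and was lower in R by a difference of -0.56 (SE 0.20, adjusted p = 0.0308), a call lost in 4 of the 6 fits that left out a library. On the spike-in scale its difference, like all 48 in this set, was above 0. Ccne2, whose difference of 0.39 (SE 0.43) did not pass, lay at 6.48, 20.9 and 8.50 FPKM in RAm and 11.2, 13.1 and 19.3 FPKM in R.

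Of the polymerase and primase genes 5 of 7 tested were higher in R, beside 60.5% of all genes. Under median of ratios scaling 4 were higher, without Pole2, beside 42.6%, and Pola1 was lower, beside 24.9%. On the spike-in scale Pola1 was not lower. The primase subunits Prim2 and Prim1 lay at 0.856, 0.0700 and 0.940 FPKM in RAm and 10.4, 12.5 and 13.4 FPKM in R and at 4.65, 6.03 and 8.77 FPKM in RAm and 29.2, 41.7 and 25.4 FPKM in R, with differences of 3.06 (SE 0.31, adjusted p = 8.85e-05) and 2.15 (SE 0.30, adjusted p = 0.000388). Pole lay at 0.0854, 0 and 0.168 FPKM in RAm and 3.39, 2.69 and 3.65 FPKM in R, a difference of 1.96 (SE 0.19, adjusted p = 7.15e-05), and Pold2 lay at 0, 0.119 and 0.755 FPKM in RAm and 3.04, 4.77 and 2.70 FPKM in R, a difference of 1.82 (SE 0.29, adjusted p = 0.000837). Pole2 lay at 0.808, 5.58 and 3.14 FPKM in RAm and 11.6, 8.91 and 6.94 FPKM in R, a difference of 1.44 (SE 0.48, adjusted p = 0.0253), and missed the threshold without R3 or r1. Both polymerase α subunits stayed below the threshold. Pola1 lay at 17.4, 17.2 and 18.1 FPKM in RAm and 21.7, 18.8 and 19.6 FPKM in R, a difference of 0.18 (SE 0.20), and Pola2 at 0.602, 2.76 and 1.03 FPKM in RAm and 0.860, 0.851 and 1.38 FPKM in R, a difference of -0.19 (SE 0.33). Pold1, under the filter, lay at 0.0436, 0.489 and 0.0589 FPKM in RAm and 0.148, 0.0827 and 0.0842 FPKM in R.

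The clamp Pcna lay at 14.5, 2.83 and 8.91 FPKM in RAm and 32.5, 35.9 and 37.4 FPKM in R, a difference of 2.11 (SE 0.48, adjusted p = 0.00469). Rfc4 lay at 5.28, 14.7 and 7.95 FPKM in RAm and 49.6, 22.4 and 26.8 FPKM in R, Rfc1 at 14.1, 13.7 and 11.5 FPKM in RAm and 34.9, 27.2 and 31.8 FPKM in R and Rfc2 at 0.559, 1.26 and 1.02 FPKM in RAm and 2.42, 2.73 and 2.32 FPKM in R, with differences of 1.74 (SE 0.42, adjusted p = 0.00643), 1.20 (SE 0.21, adjusted p = 0.00135) and 0.86 (SE 0.23, adjusted p = 0.00984). Rfc5 lay at 15.5, 10.7 and 19.8 FPKM in RAm and 5.36, 5.84 and 4.87 FPKM in R and was lower in R by a difference of -1.33 (SE 0.28, adjusted p = 0.00295), while Rfc3 overlapped at 2.93, 1.63 and 0.317 FPKM in RAm and 2.88, 2.56 and 1.19 FPKM in R, a difference of 0.38 (SE 0.44). Under median of ratios scaling Pcna, Rfc1, Rfc2 and Rfc4 did not pass and Rfc5 was still lower. On the spike-in scale the difference of Rfc5, like all 48 in this set, was above 0. Rpa2 lay at 2.26, 2.08 and 2.06 FPKM in RAm and 99.4, 99.8 and 94.1 FPKM in R, a difference of 4.98 (SE 0.19, adjusted p = 4.51e-06), and Fen1 lay at 0.328, 1.22 and 0 FPKM in RAm and 2.70, 1.41 and 1.89 FPKM in R, a difference of 1.04 (SE 0.32, adjusted p = 0.0194), which missed the threshold under median of ratios scaling and without RAm1, RAm3 or R3. Rpa1, Rpa3 and Lig1 differed by -0.03 (SE 0.27), 0.09 (SE 0.26) and -0.68 (SE 0.49) and did not pass, but all 3 were lower past the threshold under median of ratios scaling. On the spike-in scale these 3 differences were above 0. Rrm2 lay at 2.30, 8.29 and 0.430 FPKM in RAm and 171, 151 and 167 FPKM in R and Rrm1 at 0.154, 0.109 and 0.234 FPKM in RAm and 9.54, 9.49 and 10.7 FPKM in R, with differences of 5.54 (SE 0.61, adjusted p = 0.000121) and 3.22 (SE 0.22, adjusted p = 2.16e-05). Tipin lay at 59.9, 67.6 and 63.2 FPKM in RAm and 509, 582 and 579 FPKM in R, a difference of 3.11 (SE 0.17, adjusted p = 9.88e-06), while its partner Timeless differed by 0.41 (SE 0.25) and did not pass.

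The change in the R and RAm set was tested against that in the NT and Am set as an interaction. It was higher for 23 of 48 members, beside 36% of 17196 genes, and lower for 2, beside 8.46%, with the 2 lower ones Orc5 and Rfc3. The largest of these were Gins1, 5.05 (SE 0.56), Rpa2, 4.59 (SE 0.58), and Ccne1, 4.49 (SE 0.56). Scaled by the median of ratios, 14 were higher, beside 19.7%, and 4 lower, beside 16.7%. Without NT3 the counts were 24, beside 33.4%, and 1, beside 7.69%. Under that scaling the medians of all genes moved by more than 0.1 in each set: from 0.26 to 0.03 in the NT and Am set and from 1.31 to 0.55 in the R and RAm set. There the R set had 24 higher and 8 lower members, beside 42.6% and 24.9% of all genes. On the spike-in scale, with 47 of 92 spike-ins found in all 12 libraries, 40 of 48 were higher in the fit of all 12 libraries, beside 71.4%, 22 in the NT and Am set, beside 29.4%, and 45 in the R and RAm set, beside 80.7%. In these fits 0 were lower, beside 1.63%, 0.77% and 5.28% of all genes. All 48 differences in the R and RAm set were above 0, so the members lower in R on the other scales turned sign. The interaction on this scale was higher for 31, beside 50.5%, and lower for 0, beside 2.71%.

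**Figure D4:**
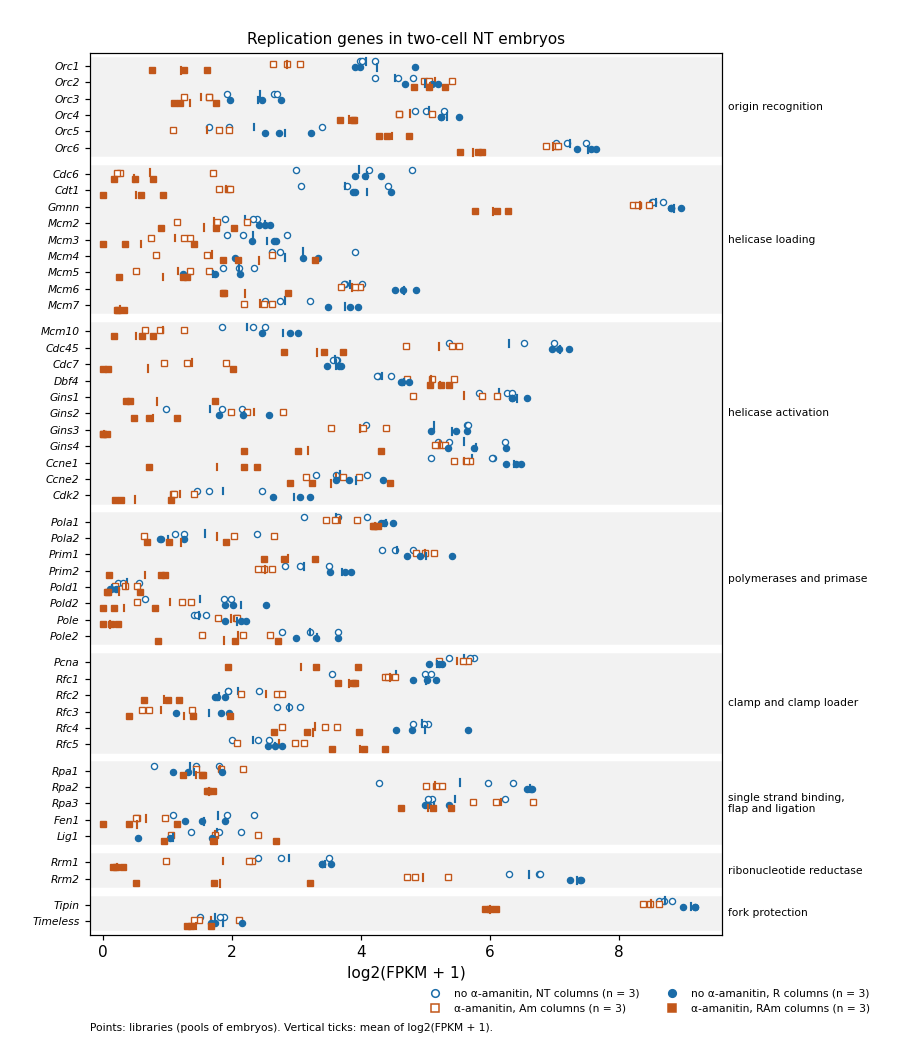
Level of each of the 49 genes, as log2(FPKM + 1), in the 4 groups of 3 two-cell libraries, NT and R without and Am and RAm with α-amanitin. Filled squares (RAm) lie furthest left for genes such as Gins1, Rpa2, Mcm7 and Tipin, and furthest right for Orc5 and Rfc5.

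**Figure D5:**
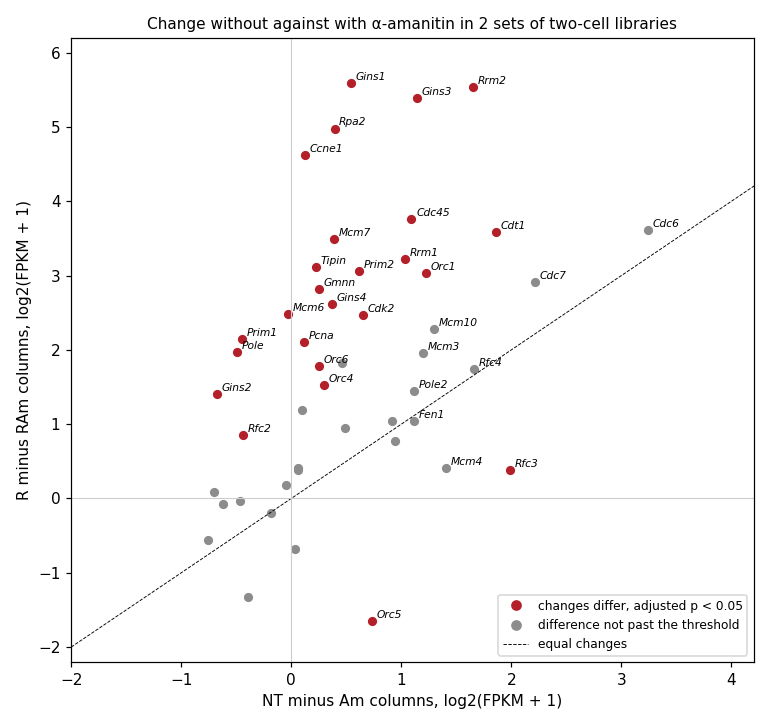
For each of the 48 tested genes, the difference without against with α-amanitin in the NT and Am columns (x axis) and in the R and RAm columns (y axis), both in log2(FPKM + 1). Red points mark the 25 genes whose changes differ in the test of the interaction, 23 above the dashed line of equal changes and 2 below it.

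Related lists in the two-cell sets were counted too. In the NT and Am set the counts are read against 12.7% of all genes higher and 4.18% lower. Other replication factors had 0 of 21 higher and 1 lower, Pold4 at -1.87 (SE 0.34, adjusted p = 0.0136). The checkpoint list of 9 had Wee1 higher at 1.34 (SE 0.30, adjusted p = 0.0244) and Chek1 lower at -1.16 (SE 0.23, adjusted p = 0.0182). Neither Pold4 nor Chek1 was lower past the threshold on the spike-in scale. Hat1 (1.84 (SE 0.37, adjusted p = 0.0178)), Gmps (1.35 (SE 0.30, adjusted p = 0.0245)), Lin52 (1.83 (SE 0.49, adjusted p = 0.0406)), Skp2 (1.65 (SE 0.41, adjusted p = 0.0337)) and Cdk1 (1.06 (SE 0.27, adjusted p = 0.0363)) were the other genes past the threshold there. These made 1 of 11 genes of chromatin assembly, 1 of 18 of nucleotide supply, 1 of 12 E2F and Rb regulators and 2 of 16 of S phase and G1 control. In the R and RAm set, 13 of 21 other replication factors were higher and 1 lower, 14 and 2 of 18 genes of nucleotide supply, 9 and 0 of 11 of chromatin assembly, 10 and 1 of 13 of S phase and G1 control, 7 and 1 of 9 checkpoint genes, and 2 and 6 of 13 E2F and Rb regulators, beside 60.5% and 16.4% of all genes. Under median of ratios scaling the counts were 4 and 5 for other replication factors, 11 and 3 for nucleotide supply, 3 and 1 for chromatin assembly, 8 and 2 for S phase and G1 control, 3 and 1 for the checkpoint and 2 and 10 for the regulators, beside 42.6% and 24.9%. On the spike-in scale the counts, in the same order, were 19 and 0, 17 and 0, 11 and 0, 13 and 0, 8 and 0, and 10 and 1, beside 80.7% and 5.28%. Most regulators were thus higher in R on that scale. On values as deposited, the lower regulators included E2f1, at -2.61 (SE 0.27, adjusted p = 9.65e-05), and Rb1, at -1.94 (SE 0.28, adjusted p = 0.000457), the transcription factor and the pocket protein of the E2F pathway, and the highest was Lin52 at 4.18 (SE 0.33, adjusted p = 3.4e-05). Chek1 was lower at -2.52 (SE 0.20, adjusted p = 3.36e-05), a call absent on the spike-in scale, and Tk1, a salvage kinase, was higher at 3.94 (SE 0.24, adjusted p = 1.39e-05).

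Across the 2 stages, which share no libraries, 6 of the 11 genes of the four-cell comparison (54.5%) were among the 8 of the NT and Am set (75%): Cdc6, Cdc7, Cdt1, Orc1, Rfc3 and Rrm2. Of all 48 members tested in that set 16.7% were higher, beside 12.7% of all genes. Of the 11, 6 (54.5%) were among the 34 higher in R (17.6%): Cdc6, Cdc7, Cdt1, Gins3, Orc1 and Rrm2. Of all 48 members tested in that set 70.8% were higher in R, so this share of the 11 lies below that of the members as a whole. Of the 8 of the NT and Am set, 7 (87.5%) were also among those 34 (20.6%). Mcm4, past the threshold at the four-cell stage, differed by 1.41 (SE 0.54) in the NT and Am set and 0.41 (SE 0.49) in the R and RAm set. Rpa1 differed by -0.47 (SE 0.37) and -0.03 (SE 0.27). Neither passed in either two-cell set as deposited, and Rpa1 was lower past the threshold in the R and RAm set under median of ratios scaling. On the spike-in scale its difference in that set was above 0.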

How the data were processed

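Per the processing notes and the study's methods, the authors cleaned reads with Trimmomatic, Trim Galore and cutadapt, mapped them with STAR to mm10 and counted them with featureCounts; versions are not given in the sources used here. Libraries were made with SMART-seq v4, which does not mark strand. The deposited FPKM are per kilobase of gene and scaled to counted reads, without spike-in scaling. Values were whole reads in the four-cell α-amanitin table (100% within 0.02) and in 40.8% to 50.8% of cases elsewhere. limma 3.58.1 in R 4.3.3 tested log2(FPKM + 1) for genes with at least 1 FPKM in at least 3 libraries, with Benjamini-Hochberg adjustment over all genes tested; a gene passed at an adjusted p under 0.05. Spike-in scaling, another pseudocount, no filter, median of ratios scaling and leaving out each library were alternatives. Groups came from sample labels and column names; the 3 D columns match their group by name but no single sample, 4 columns of the replication table with other letters match no group and were left out, and the Oryx dammah table was not used because its identifiers carry no gene names. The 49 genes, the related lists and the markers were chosen with earlier results of these data known. Library values were given for members that passed in a comparison, for those with the largest changes either way, for most of the most abundant and for some near the threshold. Orc6 and Cdc45, also abundant, have none for D and DR or for the NT and Am set. Of the related lists, differences were given for at most 3 genes a direction that passed.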

Additional observations from a re-analysis of the deposited data

Results flagged for a closer look

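The highest or lowest value of a group of 6 two-cell libraries stood apart from the others (Dixon's criterion at 95%) in 7 of 98 tests, and chance alone gives about 1 in 20. NT3 was the value that stood apart for Pola2 at 4.24 FPKM, Rfc1 at 10.7 and Rpa3 at 74.8, and it also held the highest share of spike-in reads among the untreated libraries. The others were Orc1 at 27.7 FPKM in r2, Rfc4 at 49.6 in R3 and Rfc2 at 4.34 in NT1, all untreated, and Cdc6 at 2.25 in Am2, treated. The groups of 6 hold both column sets, which differ in level for many genes.

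The change without α-amanitin differed between the column sets in the test of the interaction (limma, adjusted p under 0.05) for 25 genes. Of 17196 genes tested, 36% were higher and 8.46% lower in this test. Under median of ratios scaling 14 members were higher, beside 19.7% of all genes, and 4 lower, beside 16.7%. On the spike-in scale 31 were higher, beside 50.5%, and 0 lower, beside 2.71%. As log2 differences, R and RAm set minus NT and Am set, the 23 higher were Gins1 5.05, Rpa2 4.59, Ccne1 4.49, Gins3 4.25, Rrm2 3.89, Mcm7 3.11, Tipin 2.89, Cdc45 2.67, Prim1 2.60, Gmnn 2.56, Mcm6 2.503, Pole 2.46, Prim2 2.44, Gins4 2.25, Rrm1 2.19, Gins2 2.09, Pcna 1.99, Orc1 1.82, Cdk2 1.81, Cdt1 1.72, Orc6 1.52, Rfc2 1.30 and Orc4 1.23, and the 2 lower were Rfc3 -1.60 and Orc5 -2.38. Early or late stage and column set cannot be told apart in these columns, and the part of the C2C12 and embryo markers that also differ between the sets was not tested.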

How the results depend on the processing

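No paired analysis was possible for the four-cell libraries or for D and DR because the four-cell column numbers are in no sample label and the D and DR columns share only 1 number. In the two-cell table the numbers are shared, but libraries with the same number did not deviate together (r of 0.015 to 0.065), and a fit with the replicate block had 26 members higher and 0 lower, beside 29 and 0 without it, with 35% of all genes higher and 38.9% without the block. At the four-cell stage, with the share of all genes that was higher in parentheses, 6 members were higher with a pseudocount of 0.1 (6.81%), 0 with no filter (1.23%), 7 under median of ratios scaling (7.7%), 8 with the 4-fold criterion (6.2%) and 12 by limma voom on recovered reads (11.2%), and leaving out each library gave 0 to 10 (3.53% to 11.9%). In the two-cell fit of all libraries, the 29 higher members became 11 with the 4-fold criterion (11.1%), 15 under median of ratios scaling (21.9%) and 8 in the columns without R (12.7%), and leaving out each library gave 22 to 29 (28.9% to 43.7%). The 0 lower members became 1 with no filter (2.53% of all genes lower), 5 under that scaling (14.2%), 2 with the column set as covariate (10.9%) and 3 in the columns with R (16.4%), and leaving out each library gave 0 to 1 (6% to 10%). On the spike-in scale 40 were higher (71.4%) and 0 lower (1.63%) in the fit of all libraries. In the columns without R 22 were higher (29.4%) and 0 lower (0.77%), and in the columns with R 45 were higher (80.7%) and 0 lower (5.28%). Median of ratios scaling starts from the deposited values and uses no spike-ins, so it has no separate result on this scale. Within the columns without R, leaving out each library gave 4 to 12 higher (3.95% to 16.8%, with 12 without NT3) and 0 to 1 lower (0.896% to 5.48%), and median of ratios scaling gave 7 (7.43%) and 2 (6.83%). Within the columns with R, leaving out each library gave 30 to 35 higher (56.4% to 60.2%) and 2 to 3 lower (14.2% to 16.4%), and median of ratios scaling 24 (42.6%) and 8 (24.9%). Mcm6 turned sign in the columns without R, from 1.23 in the fit of all libraries to -0.0261. Within the column sets, median of ratios scaling turned the sign of 10 members in the columns without R (Ccne1, Ccne2, Gmnn, Lig1, Orc4, Orc6, Pcna, Rfc1, Timeless and Tipin), of 6 in the columns with R (Ccne2, Mcm4, Pola1, Rfc3, Rpa3 and Timeless) and of 13 in the interaction. None of these was past the threshold as deposited, but Pola1 (-0.97) and Rpa3 (-1.08) became lower past it in the columns with R, and Dbf4 in the interaction. No member was past the threshold between D and DR under any alternative run. The cause of these changes was not tested. The settings by column set were chosen after the data were seen. The shallowest four-cell library held 1136771 reads, and genes near 1 FPKM there rest on few reads.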
